A study of Gossypium hirsutum with 24 samples.

Results

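In anthers of upland cotton (Gossypium hirsutum), 45 of 23977 probe sets on the Affymetrix Cotton Genome array had a lower transcript level in 7 mm buds than in both the smaller and the larger buds. They were chosen on the deposited log2 values by the median of the 3 arrays of each group. A chosen probe set had a 5 mm anther median of at least 6, a 7 mm median at least 1 below the 5 mm and the 8 mm median, and 5 mm and 8 mm medians less than 1 apart. One log2 unit is a doubling of the level. Anther values therefore define these transcripts, and everything said of them in anthers is a description without a test. The arrays of other tissues took no part in the choice, and tests were made only there.

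The series held 24 arrays in 8 groups of 3. Anthers were dissected from buds of 5, 7 and 8 mm, and what was left of buds of the same sizes, without anthers, formed 3 further groups. Young leaves from plants 1 month old and seedlings 5 days after germination were the vegetative tissues. No treatment, transgene or mutant genotype is named in the labels for any group. The series calls the replicates biological without naming the source plants, so p-values measure the spread between these samples.

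The anther is the pollen-forming organ of the flower. In its chambers the pollen mother cells pass through meiosis and the products develop into pollen, while the tapetum, the innermost wall layer, feeds them, supplies material for the pollen wall and later breaks down. Which cells make up the anther and what they transcribe thus shifts within a short span of bud growth. The series was designed around stages before, during and after meiosis, but the labels do not tie the bud sizes to them, and every group is called by its size here. In such bulk samples, fewer cells of a type and less RNA per cell cannot be told apart.

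Of the 45 probe sets, 4 carry a single gene symbol in the platform annotation: LOC107928766, LOC107908811, LOC107899542 and LOC107924088. All are locus numbers without a product name, so no function is assigned to them. A further 2 probe sets list several symbols, and the others have none. Transcripts without a single symbol are called Dip followed by their rank by depth of the dip, so that Dip2 has the next deepest dip after LOC107928766 and Dip45 the shallowest, and the maps of tissue levels and bud differences pair each name with its array identifier. The dipping set thus cannot be ordered by the roles of its genes, and it is ordered here by the depth of the dip and by tissue. The dip of a probe set is the smaller of its fall, the 5 mm median minus the 7 mm median, and its recovery, the 8 mm median minus the 7 mm median.

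The arrays correlated within groups at r of 0.967 to 0.999 across probe sets, which are not independent replicates. Between 64.5% and 67.1% of probe sets lay above the background of 2.23 log2 units on each array. In the poly-A controls, transcripts added to the RNA before labelling, the 5′ minus the 3′ signal was -2.63 log2 units on replicate 3 of 7 mm buds, while the other 23 arrays lay between -1.83 and 0.22. Replicate 2 of 5 mm buds gave values well apart from its group in several of the transcripts below. Scan dates were not analysed here, and with few arrays a group the precision of each level is limited.

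The dip was shallow for most of the transcripts and deep for a few. It ran from 1.01 to 3.37 log2 units with a median of 1.18, a 2.26-fold difference. It was below 1.2 in 25 probe sets, at least 1.5 in 8 and at least 2 in 2. The fall had a median of 1.41 and the recovery of 1.28, against 0.10 and 0.03 over the 8865 probe sets whose 5 mm median was at least 6 and within 1 of the 8 mm median. The 8 mm median lay below the 5 mm median in 31 of the 45 and above it in 14. Levels ranged from 6.05 to 11.8 at 5 mm, from 4.43 to 10.6 at 7 mm and from 5.70 to 12.7 at 8 mm, so the transcripts stayed far above background at 7 mm. The dip was also much the rarer of a pair of mirrored shapes: 45 probe sets dipped, against 242 that peaked at 7 mm under the same thresholds with the sign turned and the floor of 6 set on the 7 mm median, the highest of the 3, in place of the 5 mm median.

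**Figure D1:**
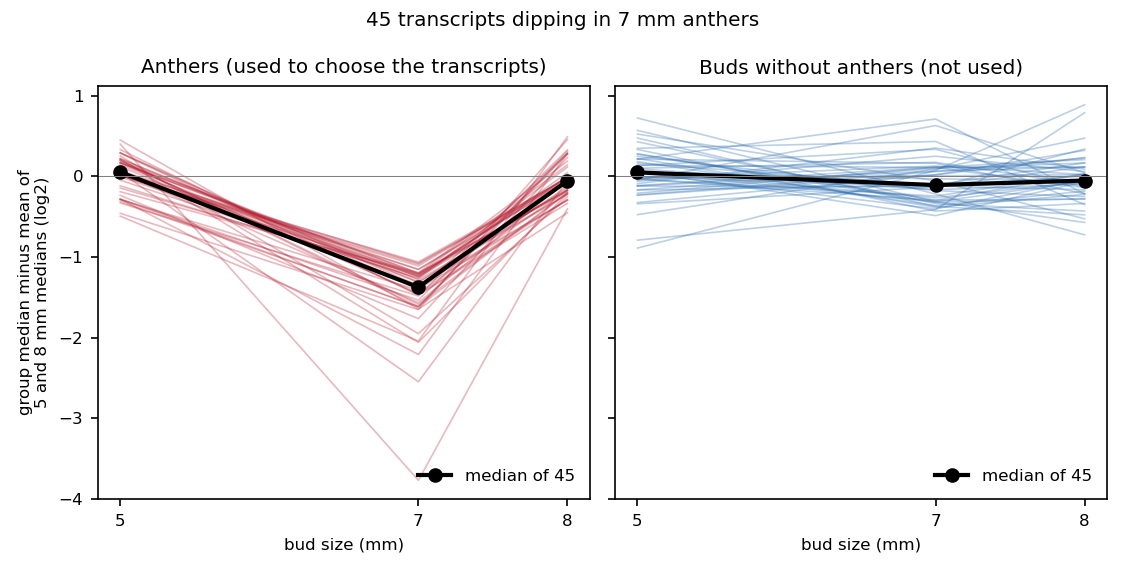
Group median minus the mean of the 5 and 8 mm medians (log2, vertical axis) against bud size (mm), one line for each of the 45 probe sets and a black line for their median. In anthers (left), whose values chose the probe sets, every line has its low point at 7 mm. In buds without anthers (right), which took no part in the choice, the median line stays near 0 at all 3 sizes, while some single lines slope up or down between 5 and 8 mm.

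The single arrays show how far the 3 sizes were apart. All 3 arrays of 7 mm anthers lay below all 3 of 5 mm anthers in 32 of the 45 probe sets, where 18.1% of all probe sets had this order. They lay below all 3 of 8 mm anthers in 36, against 13.9% of all probe sets, and below both in 25, against 4.79%. Since the same arrays chose the probe sets, nothing is read from these counts. In 7 of the remaining probe sets the arrays were separate from 5 mm only, in 11 from 8 mm only, and in 2 they overlapped with both.

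The deepest dip was that of LOC107928766. Its levels were 8.67, 9.83 and 9.93 in 5 mm anthers, 5.66, 5.34 and 6.56 in 7 mm anthers, and 10.90, 9.03 and 7.20 in 8 mm anthers. Every 7 mm array lay below every array of the other sizes, while the 8 mm arrays were spread over several log2 units. Its fall was 4.17, an 18.0-fold difference, and its recovery 3.37, a 10.3-fold difference. Leaving out single arrays gave dips of 2.45 to 4.17. Without replicate 1 of 8 mm it left the list, because its 5 and 8 mm medians were then no longer less than 1 apart. It was also absent from the list when arrays were scaled to the spike-in controls. The platform annotation gives this symbol to no other probe set on the array.

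Dip2 was next in depth. It had 7.63, 8.05 and 8.07 in 5 mm anthers, 5.43, 5.45 and 7.12 in 7 mm anthers, and 7.88, 7.94 and 8.04 in 8 mm anthers. The 5 and 8 mm arrays were tightly grouped, and 1 of the 7 mm arrays, replicate 3, came close to them. Its dip of 2.49 became 1.66 without replicate 1 of 7 mm. Dip3 had 7.87, 8.83 and 8.93 in 5 mm anthers, 6.90, 6.53 and 7.78 in 7 mm anthers, and 10.34, 9.39 and 8.91 in 8 mm anthers, a dip of 1.93. Its 7 mm arrays were the lowest, again with replicate 3 nearest to the other sizes.

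Dip4 had 8.23, 9.24 and 9.10 in 5 mm anthers, 6.82, 6.68 and 7.14 in 7 mm anthers, and 8.67, 8.80 and 7.00 in 8 mm anthers. Here the overlap lay on the 8 mm side, where replicate 7 was as low as the 7 mm arrays. Its dip of 1.84 became 1.07 without replicate 1 of 8 mm and 1.01 without replicate 6 of 8 mm. Dip5 had 8.82, 9.15 and 8.61 in 5 mm anthers, 6.62, 6.49 and 7.46 in 7 mm anthers, and 8.03, 8.44 and 8.31 in 8 mm anthers, with no overlap and a dip of 1.70. Dip6 had 6.34, 8.26 and 7.65 in 5 mm anthers, 6.07, 6.10 and 7.72 in 7 mm anthers, and 8.63, 8.35 and 9.10 in 8 mm anthers. Its 5 and 7 mm arrays overlapped, and its dip of 1.55 became 0.90 without replicate 3 of 5 mm, 0.74 without replicate 1 of 7 mm and 0.76 without replicate 2 of 7 mm.

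Dip7 was among the most abundant of these transcripts in anthers. It had 9.36, 10.28 and 10.24 in 5 mm anthers, 8.71, 8.63 and 9.51 in 7 mm anthers, and 10.32, 10.71 and 11.01 in 8 mm anthers, a dip of 1.53. Dip8 had 7.19, 8.19 and 7.98 in 5 mm anthers, 6.33, 6.37 and 6.87 in 7 mm anthers, and 8.09, 7.89 and 7.81 in 8 mm anthers, a dip of 1.52. In Dip8 every 7 mm array lay below every array of the other sizes, while the 5 and 8 mm arrays overlapped. In Dip7 1 pair of 5 and 7 mm arrays crossed.

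**Figure D2:**
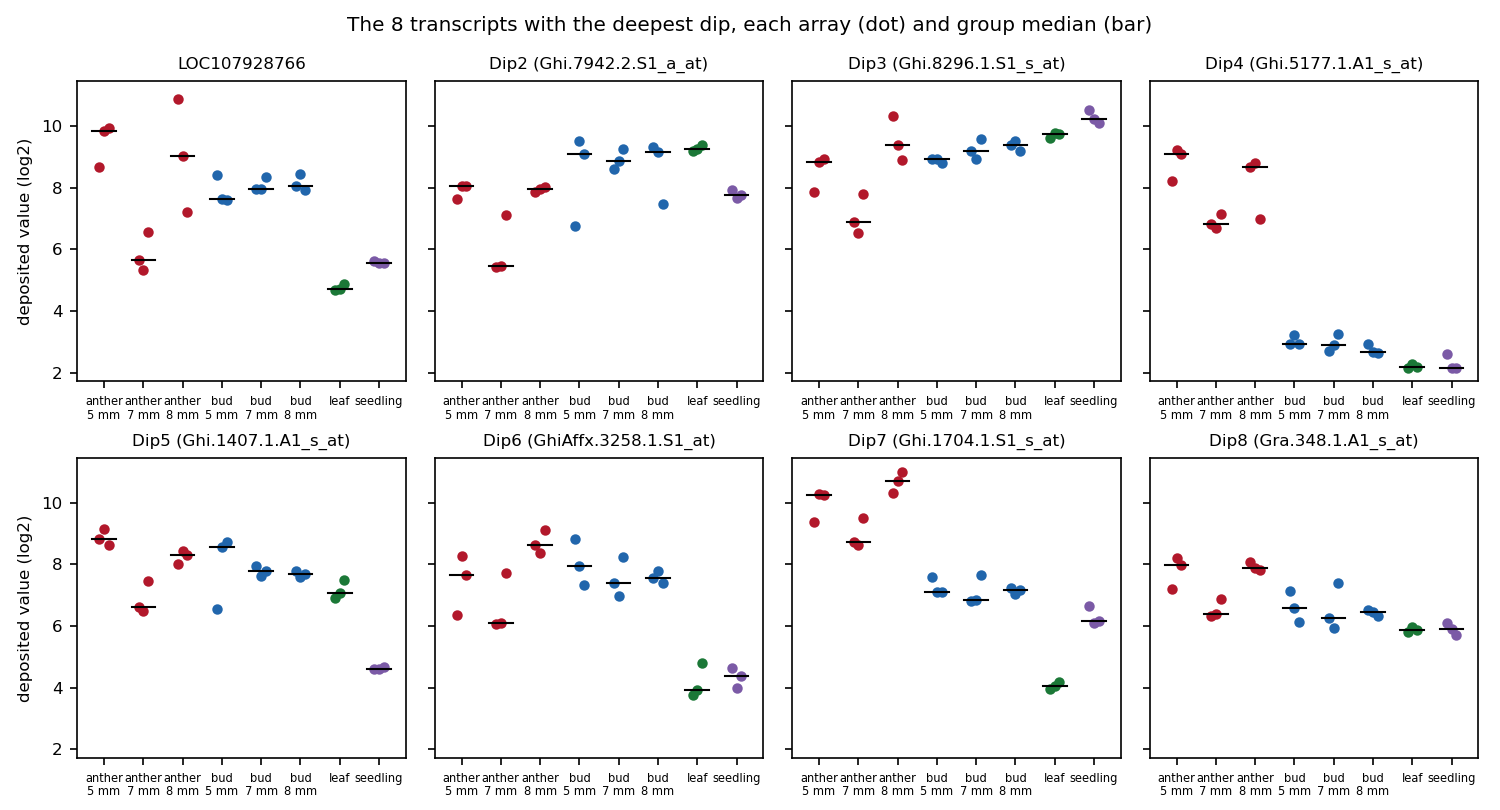
Deposited log2 value (vertical axis) of the 8 probe sets with the deepest dip in each of the 8 groups, with a dot for each array and a bar for the group median. The 7 mm anther median sits below those of 5 and 8 mm anthers in each panel, while the other tissues range from near background for Dip4 to above most anther arrays for Dip3.

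The other genes with a symbol had shallow dips that turned on single arrays. LOC107908811 had 5.12, 6.55 and 6.28 in 5 mm anthers, 4.52, 5.06 and 5.45 in 7 mm anthers, and 10.49, 6.37 and 6.26 in 8 mm anthers. One 8 mm array, replicate 1, stood far above all others, and the 5 and 7 mm arrays overlapped. The median passed over that array, and the dip of 1.22 became 0.64 without replicate 3 of 5 mm and 0.78 without replicate 4 of 5 mm. LOC107899542 had 7.90, 7.29 and 7.24 in 5 mm anthers, 5.79, 5.34 and 6.64 in 7 mm anthers, and 6.88, 6.86 and 6.10 in 8 mm anthers. Its 7 and 8 mm arrays overlapped, and its dip of 1.07 became 0.65 without replicate 2 of 7 mm, 0.69 without replicate 1 of 8 mm and 0.70 without replicate 6 of 8 mm. LOC107924088 had 6.52, 6.74 and 6.69 in 5 mm anthers, 5.30, 5.16 and 5.37 in 7 mm anthers, and 6.98, 6.34 and 5.11 in 8 mm anthers. The 5 mm arrays were well above the 7 mm arrays, but 8 mm replicate 7 was the lowest of all 9, and the dip of 1.05 became 0.43 without replicate 1 of 8 mm.

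The threshold cut through a continuous range. Just inside it lay Dip43 with a dip of 1.03, Dip44 with 1.01 and Dip45 with 1.01. The nearest probe sets outside it had dips of 0.998, 0.997 and 0.996. With a threshold of 0.8 in place of 1 the list held 90 probe sets. With means in place of medians it held 30, of which 21 were among the 45.

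All 45 dips stayed above 0 when any 1 of the 9 anther arrays was left out, the lowest at 0.43. Those arrays chose the probe sets, so a dip above 0 was close to given in advance. Many dips fell below the threshold. In 18 probe sets leaving out some array moved the dip by more than 1.5 times. The list shrank to 27 probe sets without replicate 3 of 5 mm and to 28 without replicate 2 of 7 mm. Only 5 of the 45 were chosen in all 9 of these lists: Dip8, Dip7, Dip5, Dip2 and Dip12. The last of these had 7.20, 8.47 and 7.96 in 5 mm anthers, 6.51, 6.32 and 6.90 in 7 mm anthers, and 7.35, 7.82 and 8.87 in 8 mm anthers. It was named after its values were seen.

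Within a size, many of the transcripts rose or fell on the same array. Their mean level was 7.14, 7.97 and 7.79 in 5 mm anthers, 6.32, 6.16 and 6.69 in 7 mm anthers, and 7.93, 7.66 and 7.52 in 8 mm anthers. Replicate 1 of 5 mm was the lowest of its group in 39 of the 45, or 86.7%, where it was the lowest in 42.8% of all probe sets above background. Replicate 3 of 7 mm was the highest of its group in 31, or 68.9%, where it was the highest in 30.2% of all probe sets above background. The poly-A controls moved in the opposite direction: their 5′ minus 3′ signal was -0.21, -1.83 and -0.56 in 5 mm anthers, -0.31, 0.22 and 0.06 in 7 mm anthers, and -1.23, -0.78 and -0.23 in 8 mm anthers. At each size, the array with the lowest mean of the transcripts had the highest poly-A value. The anther arrays chose the probe sets, so these counts and means are a description only.

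Arrays outside the choice were described in the same way, and there slopes below 0 were common in comparable probe sets too. On the 15 arrays of other tissues, the slope of the level on the poly-A signal within groups was below 0 in 35 of the 45, against 64.5% of the 8865 probe sets whose 5 mm anther median was at least 6 and within 1 of the 8 mm median. Without replicate 3 of 7 mm buds the slope was again below 0 in 35, against 61.1%. The median slope was -0.18 in the 45 and -0.09 in those 8865, and -0.27 and -0.07 without that replicate. All slopes rest on the same arrays, so the 45 are not independent of each other, and the difference was not tested. Replicate 3 of 7 mm buds had the most negative poly-A signal. It was the highest of its group in 75.6% of the 45 and in 55.1% of all probe sets above background. With the poly-A signal as a covariate, an alternative chosen after seeing the data, the 45 dips had a median of 1.06. All 45 were above 0 and 28 were at 1 or more. The rule applied to the adjusted values gave 40 probe sets, 28 of them among the 45 and 12 new. The adjustment drew on the anther arrays that chose the 45, so nothing is read from dips above 0. The 3′ minus 5′ signal of the ubiquitin control probe sets, which rises where 5′ ends are lost, was 0.61, 1.60 and 0.89 in 5 mm anthers, 0.85, 0.63 and 0.68 in 7 mm anthers, and 2.11, 1.41 and 1.97 in 8 mm anthers. It was thus lower at 7 mm than at 8 mm on every array. The same signal of the actin control probe sets was 3.22, 4.21 and 3.05 in 5 mm anthers. In 7 mm anthers it was 3.42, 2.89 and 3.13, and in 8 mm anthers 4.00, 3.39 and 3.47. For actin the 7 mm arrays overlapped with those of both other sizes. The part of RNA integrity or labelling in the dip was not tested.

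**Figure D3:**
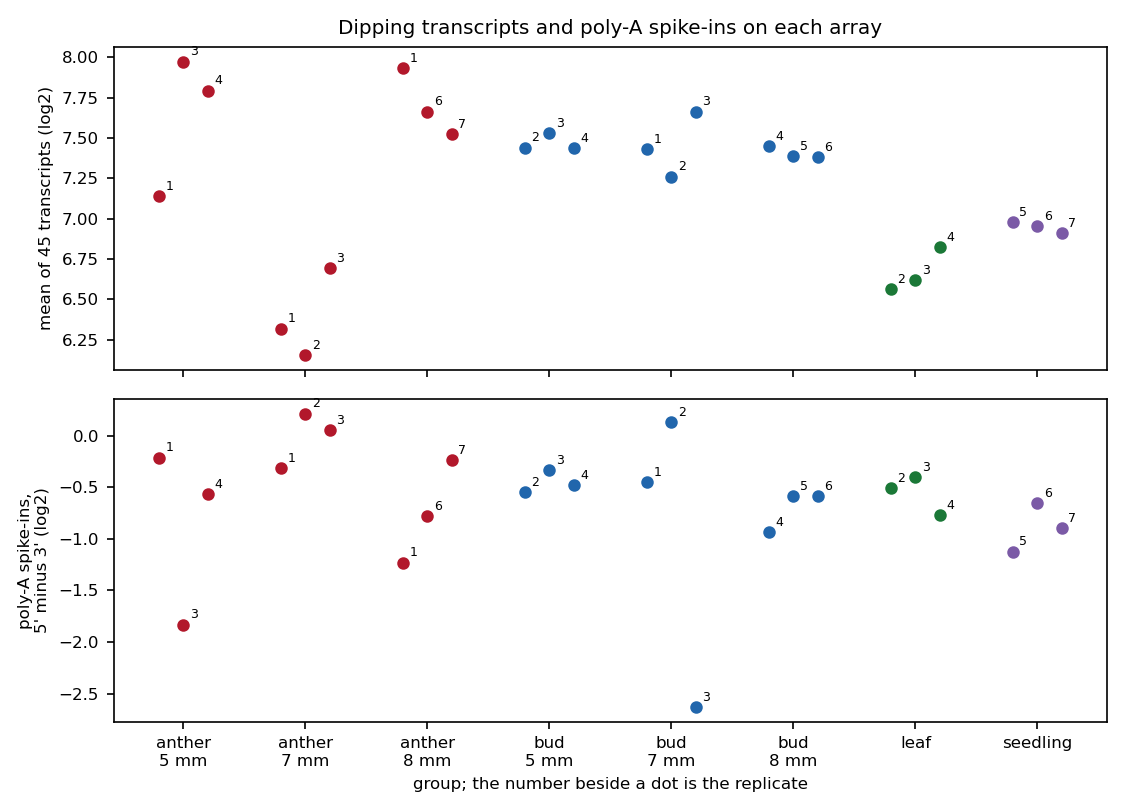
Mean log2 level of the 45 probe sets on each of the 24 arrays (top) and the 5′ minus 3′ log2 signal of the poly-A controls on the same arrays (bottom), with the replicate number beside each dot. The 7 mm anthers have the lowest means of the anther groups, 6.16 to 6.69, and poly-A values of -0.31 to 0.22, above most other arrays.

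In buds without anthers, none of the 45 transcripts passed the test for a difference between 7 mm and the other sizes. Their 7 mm level minus the mean of 5 and 8 mm had a median of 0.00 and ran from -0.99 to 0.79. With limma, 0 of the 45 passed an adjusted p of 0.05 with a difference of at least 1 log2 unit, against 0.0483% of the 16557 probe sets tested. At an unadjusted p of 0.05 there were 5 of them, 2 higher and 3 lower at 7 mm, where 8.64% of all tested probe sets passed, and no other setting of the model called any. All 7 mm bud arrays lay below all 5 and 8 mm bud arrays in 2 of the 45, against 0.805% of all probe sets, and above them in 0, against 1.03%.

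The single size steps between neighbouring sizes of buds were tested in the same way. Between 7 and 5 mm buds limma called 0 of the 45, against 0.459% of all tested. At an unadjusted p of 0.05 there were 8, 1 higher and 7 lower at 7 mm, where 14.5% of all tested probe sets passed. Between 8 and 7 mm it again called 0, against 0.0544%. At an unadjusted p of 0.05 there were 3, all lower at 8 mm, where 6.49% of all tested probe sets passed. A version with array weights called 1 in each of these steps.

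Between 8 and 5 mm buds, 2 of the 45 were lower and 0 higher at 8 mm, where 0.435% of all tested probe sets were lower and 0.634% higher. Dip12 had 7.29, 6.99 and 7.73 in 8 mm buds, against 8.79, 8.23 and 8.74 in 5 mm buds. Its difference was -1.25 (SE 0.228, limma adjusted p = 0.0183), and the groups did not overlap. Dip17 had 5.63, 5.68 and 5.49 in 8 mm buds, against 6.59, 6.55 and 6.74 in 5 mm buds, again without overlap. Its difference was -1.03 (SE 0.217, limma adjusted p = 0.0354). Both calls depended on the setting: Dip12 was lost in 5 and Dip17 in 11 of 19 alternatives. Among these, leaving out replicate 4 of 5 mm, replicate 4 of 8 mm or replicate 5 of 8 mm ended both, with differences of -1.18, -1.23 and -1.08 for Dip12 and of -0.97, -1.04 and -1.07 for Dip17. The second call also ended without replicate 3 of 5 mm (-1.06) or replicate 6 of 8 mm (-0.97).

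Set beside the buds, the transcripts were no uniform class of anther genes. At 5 mm the anther median was at least 1 above the bud median in 11 of the 45 (9.05% of all probe sets) and at least 1 below it in 9 (10.6%). At 7 mm it was at least 1 above in 4 (9.66%) and at least 1 below in 25 (11.8%). At 8 mm it was at least 1 above in 14 (8.70%) and at least 1 below in 10 (11.0%). More of the transcripts thus lay at least 1 below the level of the surrounding bud at 7 mm than at the other sizes. The choice rested on the anther side of these differences, so they were not tested.

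In 20 of the 45 the 7 mm anthers had the lowest median of all 8 groups, as in 6.26% of all probe sets. In 8 of these the 7 mm anthers lay at least 1 log2 unit below every tissue other than anther (4.43% of all). The choice required a low 7 mm anther median, so nothing is read from these counts. The largest such gaps were 3.58 for Dip16, 3.25 for LOC107924088, 2.88 for Dip34, 2.52 for Dip33 and 2.33 for Dip2. Smaller gaps were those of Dip3 (2.03), Dip29 (1.94) and Dip14 (1.23). LOC107924088 shows the pattern: its buds ranged from 8.38 to 9.78, its leaves from 8.94 to 9.46 and its seedlings from 8.52 to 8.69, all above the 5.11 to 6.98 of the 9 anther arrays.

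In 7 others the anthers of both 5 and 8 mm lay at least 1 log2 unit above every other tissue (1.03% of all). Dip4 had the widest margin, 5.73. Its arrays ran from 2.65 to 3.26 in buds, from 2.17 to 2.27 in leaf and from 2.16 to 2.62 in seedling, at or near the background of 2.23. Even at its 7 mm low of 6.68 to 7.14 it stood far above every other tissue. The others were Dip28 with a margin of 3.21, Dip7 with 3.07, Dip24 with 1.96, Dip21 with 1.65, Dip8 with 1.33 and Dip32 with 1.06. Both of these groups were formed, and their probe sets named, after their values were seen. The choice also rested on their anther levels, so nothing is read from their shares. The other 30 probe sets belonged to neither.

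**Figure D4:**
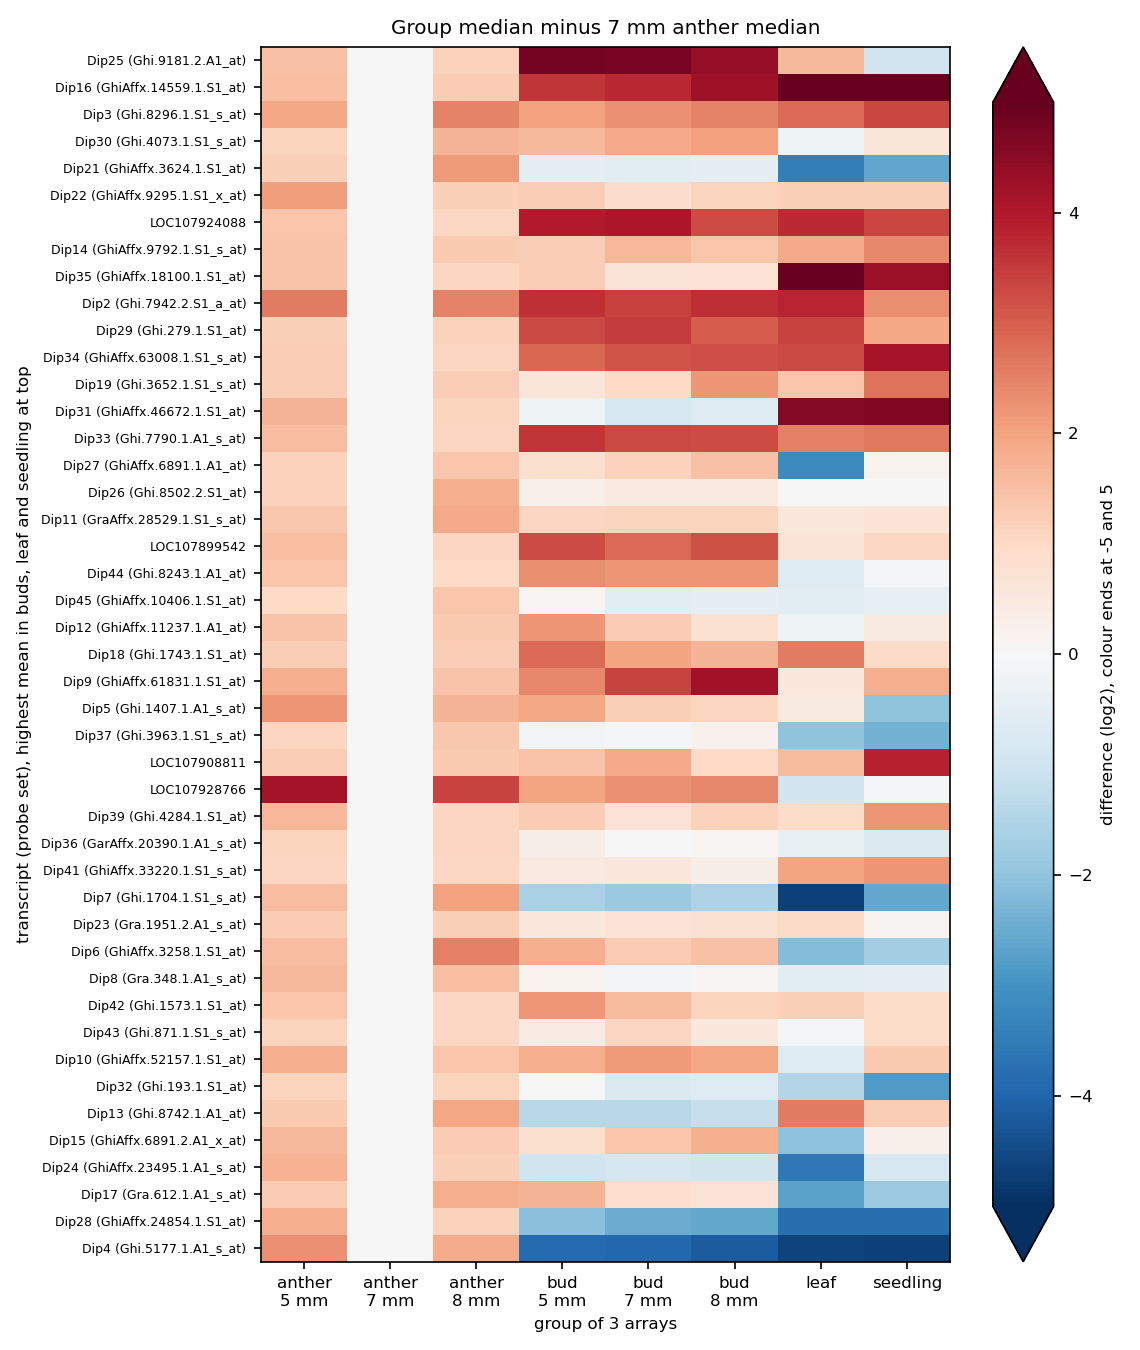
Group median minus the 7 mm anther median (log2, colour, ends at -5 and 5) for the 45 probe sets (rows, ordered by their mean over the 15 arrays of other tissues) in the 8 groups (columns). Rows that are red throughout have their lowest level in 7 mm anthers, and rows with blue in buds, leaf and seedling are higher in anthers at every size.

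Levels in the other tissues covered nearly the whole range of the array. The highest means over the 15 arrays were 9.85 for Dip25, 9.52 for Dip16 and 9.50 for Dip3. The lowest were 2.65 for Dip4, 3.01 for Dip28 and 4.74 for Dip17. Such values are set side by side as a description, since the signal of a probe set also depends on its probes.

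Buds without anthers had more of the transcripts at a higher level than leaf did. Of the 45, 18 were higher and 5 lower in buds, against 16.8% and 16.5% of all tested probe sets. Over the 8865 probe sets with a 5 mm anther median of at least 6 and within 1 of the 8 mm median, the shares were 15.4% and 12.5%. The median difference of the 45 was 0.65, against 0.06 over those 8865. The remaining 22 did not pass the test with a difference of at least 1.

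Dip27 had the largest rise, with 9.17 ± 0.298 in buds (SD, n = 9) and 4.88 ± 0.186 in leaf (SD, n = 3), a difference of 4.29 (SE 0.131, limma adjusted p = 6.19e-11). Dip17 had 6.04 in buds and 2.31 in leaf, a difference of 3.74, and 2 of its 3 leaf arrays were at or below background. Dip6 had 7.71 in buds and 4.16 in leaf, a difference of 3.56. LOC107928766, the transcript with the deepest dip, had 8.42, 7.64 and 7.59 in 5 mm buds, 7.96, 7.95 and 8.34 in 7 mm buds and 8.06, 8.43 and 7.94 in 8 mm buds. Its leaf arrays had 4.67, 4.70 and 4.89, all well below, and the difference was 3.28 (SE 0.171, limma adjusted p = 6.22e-09). LOC107899542 was also higher in buds, by 2.08 (SE 0.499, limma adjusted p = 0.00323). Its replicate 2 of 5 mm buds, at 6.11, lay within the range of its leaf arrays, 6.09 to 6.59.

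Of the 5 that were lower in buds than in leaf, 3 differed by more than 3 log2 units. Dip31 had 6.76, 6.39 and 6.32 in 5 mm buds, 5.79, 5.44 and 6.25 in 7 mm buds and 5.95, 5.85 and 6.29 in 8 mm buds, against 11.19, 11.17 and 10.59 in leaf. The groups were far apart, with a difference of -4.87 (SE 0.181, limma adjusted p = 3.26e-10). Dip13 had 4.36 in buds and 8.30 in leaf, a difference of -3.94, and Dip35 had 7.33 in buds and 11.2 in leaf, a difference of -3.90. In anthers Dip31 had 6.83, 8.38 and 8.28 in 5 mm anthers, 6.59, 6.29 and 6.71 in 7 mm anthers, and 6.42, 7.69 and 7.90 in 8 mm anthers. Its dip of 1.10 became 0.57 without replicate 6 of 8 mm and 0.46 without replicate 7 of 8 mm.

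Against seedlings, 18 of the 45 were higher and 9 lower in buds, where 15.6% and 15.5% of all tested probe sets were. Over the same 8865 probe sets the shares were 13.8% and 10.4%. The median difference was 0.76, against 0.09 over those 8865. Buds served in both comparisons, so the comparisons are not independent of each other.

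Dip25 had the largest rise of the 45. It had 8.43, 11.93 and 12.27 in 5 mm buds, 11.88, 11.81 and 11.92 in 7 mm buds and 11.50, 11.50 and 11.60 in 8 mm buds, against 6.11, 6.25 and 6.17 in seedlings. Replicate 2 of 5 mm buds was far below the other bud arrays but still above every seedling array. The difference was 5.25 (SE 0.583, limma adjusted p = 7.59e-06), and 5.66 without that array. In anthers the same probe set had 8.82, 8.60 and 8.29 in 5 mm anthers, 7.15, 7.13 and 8.31 in 7 mm anthers, and 8.31, 8.23 and 8.31 in 8 mm anthers, so that it was lower than in nearly all bud arrays at every size. Its dip of 1.17 became 0.60 without replicate 1 of 7 mm and 0.59 without replicate 2 of 7 mm.

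Dip6 was higher in buds than in seedlings by 3.38 and Dip5 by 3.18. Dip28 was at or below background on all 3 seedling arrays, and its level was at least 2.51-fold higher in buds (limma adjusted p = 0.000306). LOC107928766 was higher in buds by 2.45 (SE 0.171, limma adjusted p = 1.07e-07). LOC107899542 had a difference of 1.64 (limma adjusted p = 0.0142). It lost its call without replicate 5 of seedling, at 1.59, and with the replicate number as a block, at 1.55. Its replicate 2 of 5 mm buds, at 6.11, lay below all its seedling arrays, 6.71 to 6.92.

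Lower in buds than in seedlings were Dip31 with -5.08, Dip35 with -3.40 and Dip16 with -3.01. Dip16 had 8.51 in buds and 11.5 in seedlings, and in anthers it ran only from 4.52 to 6.46. LOC107908811 was also lower in buds, with a mean of 6.51, against 8.88 in seedlings, a difference of -2.37 (SE 0.170, limma adjusted p = 1.37e-07). LOC107924088 passed the test in neither comparison, with differences of -0.19 against leaf and 0.34 against seedlings.

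**Figure D5:**
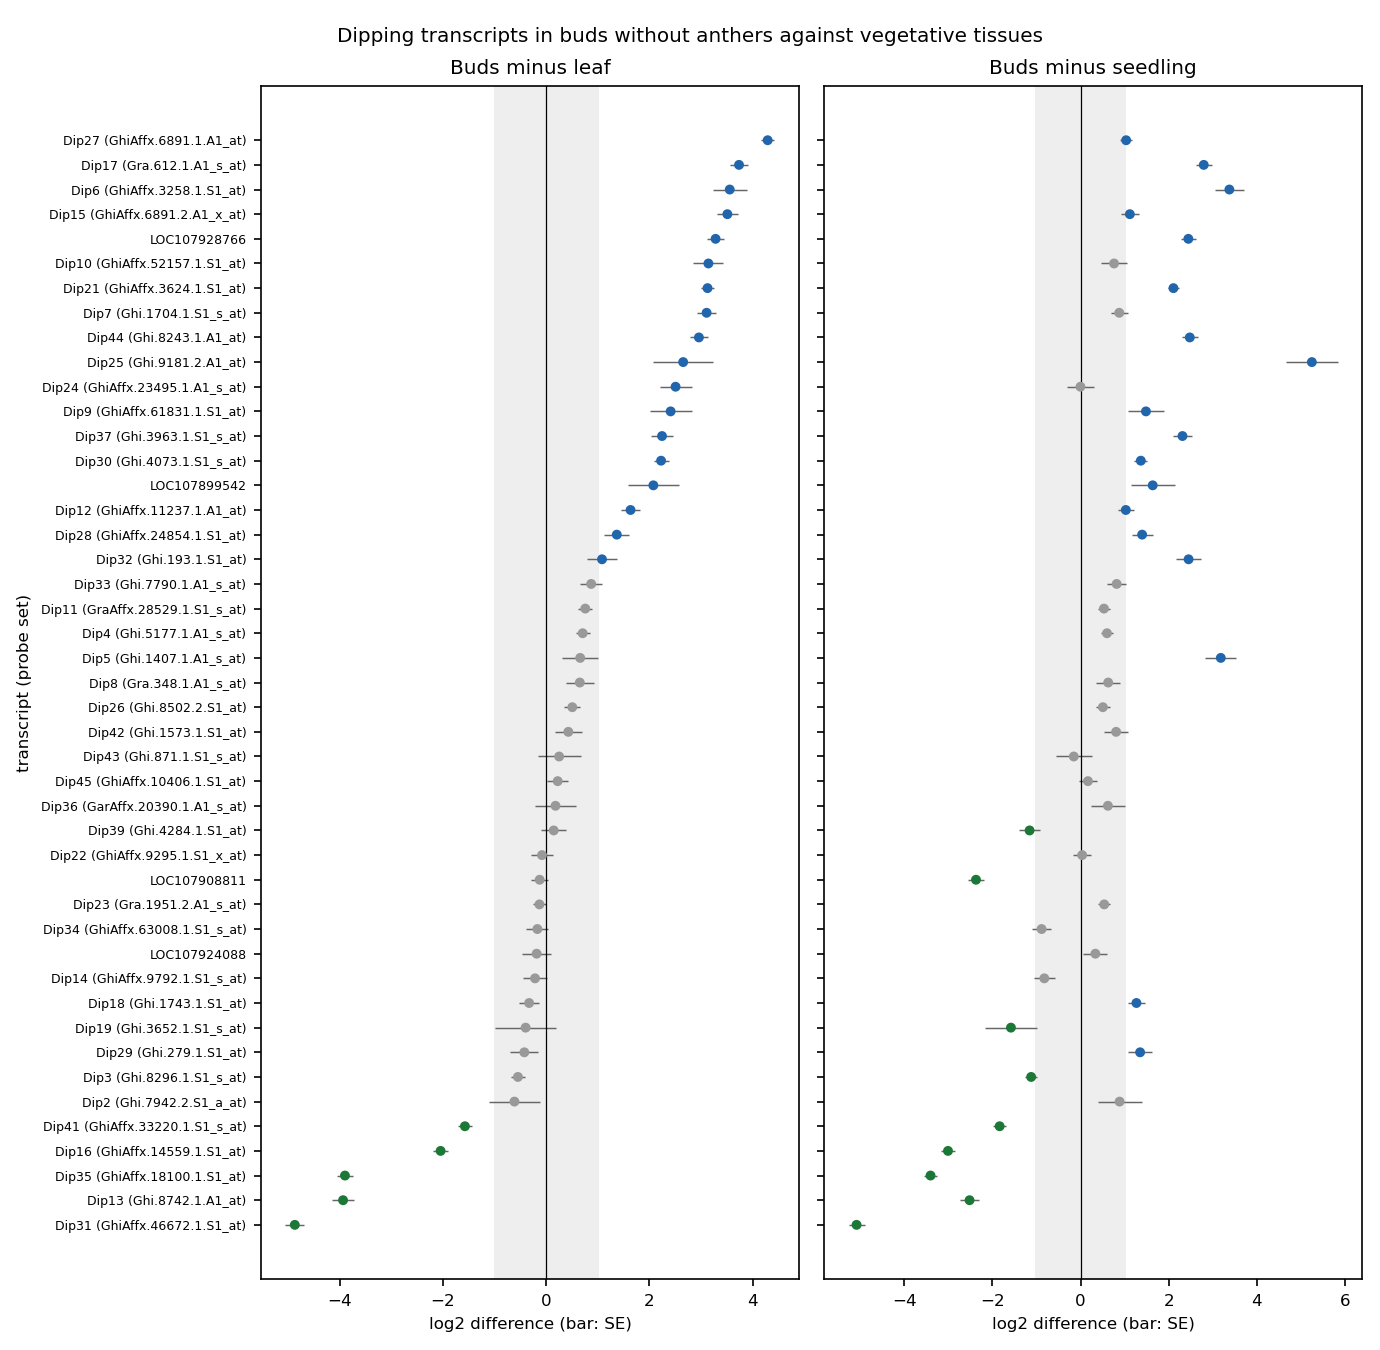
Difference of the mean of the 9 bud arrays from leaf (left) and from seedling (right) for each of the 45 probe sets (log2, dot, with its standard error as a bar). Blue dots are higher and green dots lower in buds at an adjusted p of 0.05 and a difference of at least 1, the grey band marks smaller differences, and grey dots did not pass.

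The vegetative tissues also differed from each other in these transcripts. Of the 45, 6 were higher and 8 lower in leaf than in seedlings, against 8.61% and 9.30% of all tested probe sets and 6.86% and 6.98% of those 8865. Higher in leaf were Dip25 by 2.60, Dip5 by 2.52 and Dip29 by 1.78. Dip5 had 6.91, 7.06 and 7.49 in leaf, against 4.60, 4.60 and 4.68 in seedlings, without overlap (limma adjusted p = 0.000673). Lower in leaf were Dip27 with -3.26, Dip24 with -2.51 and Dip15 with -2.39. Dip27 had 4.79, 4.76 and 5.09 in leaf, against 8.14, 8.16 and 8.11 in seedlings (limma adjusted p = 2.11e-08). LOC107908811 was lower in leaf by a difference of -2.25 (limma adjusted p = 5.55e-06).

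Some of the 45 are not separate measurements. Dip27 and Dip15 share an identifier number and ran almost in parallel, with r of 0.99 over the 15 arrays of other tissues and 0.98 over all 24, so they may report the same transcript. Of the 45, 20 end in s_at, or 44.4% against 38.7% of all probe sets, and 2 end in x_at. Such probe sets can bind transcripts of several related genes. Identifiers starting with Ghi made up 40 of the 45, or 88.9%, against 70.1% of all probe sets.

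Probe sets outside the list that carry the same identifier number mostly stood at or near the lowest value of the table, 2.16, in all anther groups. An exception was a probe set numbered like Dip25, which had a fall of 1.12 and a recovery of 0.56. Another, numbered like Dip26, had the opposite shape, with medians of 4.98 in 5 mm, 6.92 in 7 mm and 5.26 in 8 mm anthers. Both were singled out after their values were seen.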

How the data were processed

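RNA of 24 samples was hybridised to Affymetrix Cotton Genome arrays, 1 array per sample. The authors deposited log2 values that, per the submitters' processing notes, come from GCRMA, a method that corrects background, normalizes between arrays and summarises probe sets, with version and options not given in the sources used here. Since the lowest value, 2.16, made up 26.2% of the table, differences from it are compressed. No further normalization was applied.

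Of 24132 probe sets, 155 controls were left out. Background was the 95th percentile, 2.23, of 69 negative controls. A fold from a group at or below background on all its arrays is a lower bound. It sets the brighter group's mean against the higher of the background and the dim group's own values. For tests, 16557 probe sets above background on at least 3 of the 15 arrays of buds, leaf and seedling were fitted as 5 group means with limma 3.58.1 in R 4.3.3. All 45 chosen probe sets passed this filter. Two-sided p-values were adjusted by Benjamini-Hochberg over all tested probe sets within each of 7 comparisons. Called were probe sets with an adjusted p under 0.05 and a log2 difference of at least 1. The fit was tested on simulated data.

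The members, lists and tests were chosen with earlier results of these data known. Named were the 8 deepest dips, the 3 probe sets on each side of the threshold, all with a single symbol, the 3 largest called rises and falls per comparison, and the 3 highest and lowest means in other tissues; exceptions are stated where they occur. Transcripts without a single symbol were to be given by probe set identifier; the text names them by their rank in depth of the dip, and the identifiers stand in the figures. Lists of tapetum, pollen and other markers search product names, which the reference tables do not hold, so they found 0 members and the tissue labels were not checked against markers. Of 743 annotated probe sets, 697 had 1 symbol and 46 several, and all 697 were found in the RefSeq table of Gossypium_hirsutum_v2.1. No sequences or coordinates were used. Among buds, leaf and seedling, same-numbered samples of different groups did not deviate together (r from -0.16 to 0.15 over 11 pairs, with 2 above 0.1). These samples were therefore not treated as paired. Anther arrays took no part in this check. Alternatives covered the filter, the background floor, scaling, the variance prior, array weights, the arrays fitted, the thresholds, a replicate block and each array left out. Figures were drawn with matplotlib 3.10.9.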

Additional observations from a re-analysis of the deposited data

How the results depend on the processing

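The number of dipping probe sets, 45, depended on the thresholds. It was 90 with a dip of at least 0.8, 8 with a dip of at least 1.5, 28 with a 5 mm median of at least 7, and 23 without probe sets ending in s_at or x_at. With means in place of medians it was 30. It ran from 27 to 52 when single anther arrays were left out. Spike-in scaling moved the median recovery of the 8865 comparable probe sets to -0.48, from 0.03 without it. It gave 37 probe sets, of which 18 were among the 45. All 45 kept a dip above 0 on the arrays that chose them, from which nothing is read. In tests of other tissues, no called difference reversed, and of 1552 single values under alternatives 1474 kept their call and 78 lost it. The count of 2 in 8 mm against 5 mm buds was 1 with no filter on low values, 1 with median centring, 0 with spike-in scaling, 1 with a trended robust variance prior and 5 with array weights, which did not fully converge. It was 4 without the 4 arrays that stood apart (replicate 2 of 5 mm buds, replicate 3 of 7 mm, replicate 6 of 8 mm and replicate 4 of leaf), and 0 to 4 when single arrays were left out. Array weights called 1 in 7 mm against 5 mm buds and 1 in 8 mm against 7 mm buds, in place of 0. With the replicate number as a block, which the data did not bear out as a pairing, the 8 mm against 5 mm count was 0 and the leaf against seedling count was 1, in place of 14. The buds against seedling count, 27, was 18 under the block. Leaf and seedling shared no replicate number, so the block compared them only through the bud groups. Spike-in scaling gave 28 in buds against leaf and 37 in buds against seedling. The cause of these differences was not tested. Limits: 3 arrays a group leave the medians open to single arrays, no scan batch could be examined, and values near the lower limit are compressed.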
